A study of Mus musculus with 2 samples.

Results

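The 262 barcodes described here were gated to hold the most advanced spermatocytes of the RAD21L KO testis library, and they span a range of stages. They were chosen on measured values from that library: at least 1000 detected genes, Sycp1, Sycp3 and Hormad1 together at 0.3% or more of the UMIs (unique molecular identifiers, each a captured RNA molecule) with at least 8 UMIs, and at most 3 UMIs of Stra8, Meiosin and Prdm9 together. They are 3.68% of the 7118 KO barcodes (exact Clopper-Pearson 95% interval 3.26 to 4.15%), in a series of 12533 barcodes. They are set beside 291 KO barcodes of the same library that hold 4 or more UMIs of the Stra8, Meiosin and Prdm9 trio and at least 0.15% axis UMIs, called early cells below. The levels of the 6 genes of the gate, and any ordering of the members by them, are given as description only.

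The series holds 2 single-cell RNA libraries of whole testis, 1 from Rad21l+/+ (WT) and 1 from Rad21l-/- (RAD21L KO) males, at 55 days of age. The labels give no strain, do not say which part of Rad21l is deleted, and do not say how many mice went into each library. The KO library held 7118 barcodes and 28001992 UMIs and the WT library 5415 and 33096309. Each genotype is 1 library, so no test between cells or genotypes is possible, and every interval below covers counting error only. "Higher" and "lower" in counts of genes mean a difference of at least 2-fold in CPM (the UMIs of a gene summed over the barcodes of a group, per 1000000 UMIs of that group), with the 95% counting interval of the ratio beyond equality and at least 20 UMIs in both groups together. Counts under 3 were set to 3 for ratios, and log2 ratios are members over early cells unless said otherwise.

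RAD21L is a meiosis-specific kleisin, the subunit that closes the cohesin ring, and it lies along the chromosome axes on which homologous chromosomes pair and synapse. In meiotic prophase a spermatocyte breaks its DNA with SPO11, coats the ends with RPA, MEIOB and the recombinase DMC1, and builds the synaptonemal complex from SYCP1, SYCE and TEX12 proteins between axes of SYCP2, SYCP3 and HORMAD1. Normal spermatocytes that complete synapsis silence the X and Y chromosomes and switch on a large set of pachytene genes, among them the piRNA pathway and the genes for the later sperm tail. Male mice without RAD21L are known to lose their spermatocytes before that point.

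The targeted gene was still counted in the KO library. Rad21l had 111 UMIs over all KO barcodes (3.96 CPM) and 82 over all WT barcodes (2.48 CPM), libraries that hold different shares of each cell type. In early cells it had 45 UMIs in the KO (33.4 CPM) and 38 in WT (141 CPM), a log2 ratio of KO over WT of -2.08 (interval -2.73 to -1.42). The members held 9 Rad21l UMIs (6.73 CPM), and WT barcodes of the advanced gate described below held 1, so Rad21l gives no check of genotype in the members themselves.

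The label of the gate was checked against its markers. Sycp1, the transverse filament of the synaptonemal complex, stood at 152 CPM in 210 KO spermatogonia barcodes, 1502 in early cells, 3504 in the members and 36.2 in 665 KO Sertoli barcodes. Sycp3, an axis core protein, followed the same order at 125, 1337, 2823 and 25.4 CPM, and Hormad1, which marks unsynapsed axes, at 26.4, 483, 1466 and 14.7 CPM. Stra8, the regulator of meiotic entry, stood at 1375 CPM in early cells and 44.1 in the members, its partner Meiosin at 484 and 29.2, and Prdm9, the histone methyltransferase that places the breaks, at 463 and 42.6. These values follow from the gate. The spermatogonia and Sertoli barcodes were required to hold under 0.05% of Sycp1, Sycp3 and Hormad1 UMIs, so their low levels of these genes follow from that limit. Rad51ap2, a meiotic recombination factor that the gate did not use, stood at 5.14 CPM in spermatogonia, 126 in early cells and 459.8 in the members (log2 ratio 1.87, interval 1.62 to 2.12). At least 1 Rad51ap2 UMI was found in 80.2% of the members, 32.0% of the early cells and 3.2% of the Sertoli barcodes, and in 51.8%, 19.4% and 1.3% once every barcode was thinned to 2000 UMIs (5, 7 and 31 shallower barcodes left out). Median depths were 4474 UMIs in the members, 4009 in the early cells and 6960 in the Sertoli barcodes.

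**Figure D1:**
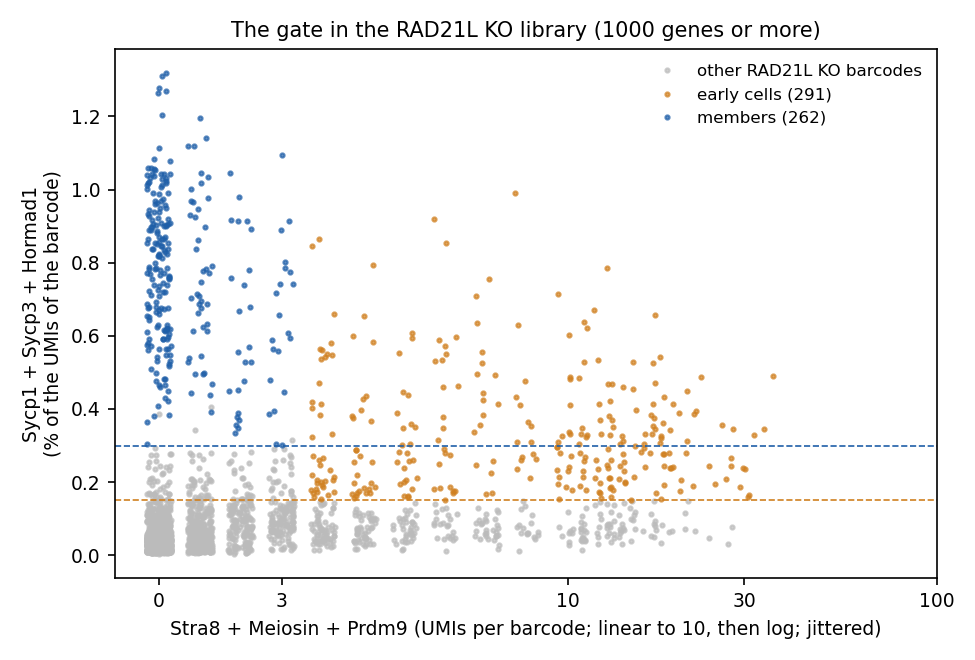
Each point is a KO barcode with 1000 or more genes; the horizontal axis gives its Stra8, Meiosin and Prdm9 UMIs (linear to 10, then logarithmic, jittered) and the vertical axis the share of its UMIs from Sycp1, Sycp3 and Hormad1. The 262 members (blue) lie at 3 UMIs or fewer above the 0.3% line, and the 291 early cells (orange) at 4 or more above the 0.15% line.

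Few barcodes lay near the edges of the gate. Between 0.3% and 0.35% of axis UMIs were 5 members, with Rad51ap2 at 104 CPM and Hspa2 at 51.9. Just below, between 0.25% and 0.3%, were 21 barcodes, with Rad51ap2 at 49.5 CPM and Hspa2 at 158. At the other edge, 21 members held 3 entry UMIs (Rad51ap2 391 and Hspa2 121 CPM), and 16 barcodes with 4 entry UMIs and the same axis share fell outside (248 and 175 CPM).

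Summed over barcodes, Sertoli and Leydig RNA was low in the members and close to its level in the early cells. The part of free RNA in the results below was not tested unless values are given beside them. The 13 Sertoli markers made 0.215% of the members' UMIs, 0.204% of those of early cells and 2.38% of those of Sertoli barcodes. The 8 Leydig markers made 0.0523% and 0.0424% in members and early cells, and the 8 myeloid markers 0.0146% and 0.0039%. Single members reached 2.01% Sertoli, 1.46% Leydig and 1.08% myeloid UMIs, and single early cells 0.942%, 0.296% and 0.225%. The part of mixed barcodes in the results was not tested gene by gene. The 8 markers of differentiating spermatogonia made 0.0307% and 0.218%. The 8 round spermatid markers, 4 of them at 0 in the members, made 0.0054% and 0.0007%. Of the 8 markers of elongating spermatids, Prm2, Tnp1, Tnp2, Smcp and Odf1 were at 0 UMIs in the members, and 4 members held a UMI of any of the 8. Of the 9 markers of undifferentiated spermatogonia, Gfra1, Ret, Nanos3 and Eomes were at 0. Scrublet marked 11 of the 262 members and 3 of the 291 early cells as possible doublets. The 210 spermatogonia barcodes held 0.440% Sertoli and 0.270% Leydig marker UMIs, with single barcodes up to 2.93% and 3.55%. Scrublet marked 18 of these 210. No barcode sequence of a member occurred in the WT library, although 14 barcodes were shared between the libraries as a whole.

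Across 10140 genes with enough UMIs, 1480 stood higher in the members than in the early cells (14.6%) and 1667 lower (16.4%), and the median log2 ratio was -0.06. Autosomal genes gave nearly the same shares, 1386 of 9610 higher (14.4%) and 1565 lower (16.3%). Against this background the gene lists differed widely in direction, as the plot of list counts shows.

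**Figure D2:**
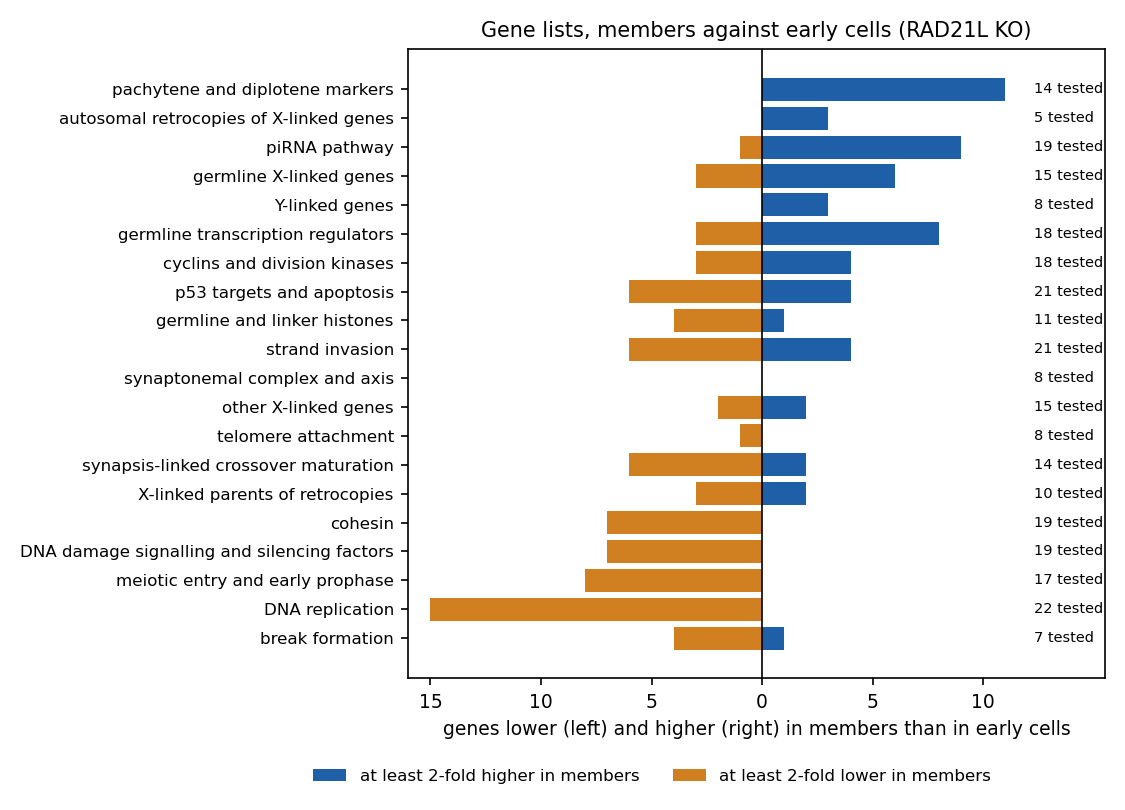
Bars give, for each gene list, how many compared members of the list were at least 2-fold lower (orange, left) or higher (blue, right) in the gated KO spermatocytes than in KO early cells; lists are ordered by median log2 ratio. The pachytene list has 11 genes higher and 0 lower of 14 compared, and DNA replication 0 higher and 15 lower of 22.

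Genes of meiotic entry and of DNA replication stood lower in the members. Of 17 compared genes of the entry list outside the gate, 8 were lower and 0 higher (median log2 ratio -0.97). Ctcfl, the germline paralogue of the insulator protein CTCF, had 103 UMIs in early cells and 3 in the members (76.4 and 2.24 CPM, log2 ratio -5.09, interval -7.39 to -3.50). Dmrt1, a regulator of the mitosis to meiosis choice, stood at 122 and 11.2 CPM, and Kit, the receptor of differentiating spermatogonia, at 110.5 and 11.2 CPM. Tex15, needed for recombination and for transposon silencing, stood at 3427 and 675 CPM, and Zcwpw1, a reader of the PRDM9 histone marks, at 1005 and 285. Dazl, the germ cell RNA-binding protein, did not differ by 2-fold, at 1650 CPM in early cells and 1813 in the members. Of 22 replication genes, 15 were lower and 0 higher (median -1.89). Tyms, the thymidylate synthase, had 51 and 3 UMIs (37.8 and 2.24 CPM), the primase subunit Prim1 stood at 108 and 8.22 CPM, and the helicase subunit Mcm2 at 102 and 12.7. Pcna, which also serves repair synthesis, stood at 257 and 184 CPM, short of 2-fold.

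Of the 11 compared genes of the histone list 4 were lower, 1 was higher and 6 were neither (median -0.18). H1f1, a linker histone abundant in early germ cells, stood at 334 CPM in spermatogonia, 1538 in early cells and 141 in the members (log2 ratio -3.45, interval -3.68 to -3.24). H2ac1, the testis variant of histone H2A, stood at 2485 and 610.1 CPM in early cells and members, and H1f2 and H1f4 at 328 and 67.3 and at 417 and 93.5 CPM. The lowest ratio among the named autosomal genes was that of the histone gene H2bu2, with 144 UMIs in early cells and 2 in the members (log2 ratio -5.57, interval -9.22 to -4.28). H3f4, a further histone gene, went from 504 to 32.9 CPM, and H2ac15 from 61.5 to 2.99. These 3 are not in the list and were reached by the size of their ratio. The gene of the list that was higher was the replacement variant H2az2, at 213 and 514 CPM. H3f3b, which encodes the replacement variant H3.3, stood at 1885 and 2135 CPM, within 2-fold.

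Apart from histones and Ctcfl, the 15 autosomal genes with the lowest ratios held Cdkn2a, the Ink4a and Arf cell cycle inhibitor, at 171 and 6.73 CPM in early cells and members (log2 ratio -4.66). They also held Fgf11 (183 and 8.22 CPM), the nucleotide enzymes Nudt17 (48.9 and 2.24) and Nt5dc2 (133 and 8.97), and the thymidine kinase gene Tk1 with 53 and 1 UMIs. Rec8, the other meiotic kleisin, stood at 60.8 and 2.99 CPM, and Zglp1, a GATA-like zinc finger protein, at 67.5 and 4.49. Myrf, Rapgefl1, Tyms and Nefh complete the 15, with log2 ratios from -4.31 to -4.08. A total of 777 autosomal genes passed the same criteria.

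Of 19 cohesin genes, 7 were lower and 0 higher (median log2 ratio -0.73): Rad21l, Rec8, Smc1b, Smc3, Mau2, Esco1 and Esco2. Esco2, the acetyltransferase that locks cohesin in S phase, stood at 645 CPM in early cells and 86.7 in the members. The meiotic subunit Smc1b stood at 1903 and 802 CPM. Stag3, the meiotic SA subunit, stood at 521 and 313 CPM, and the loader Nipbl at 769 and 559, both within 2-fold. Rad21l is among them, at 33.4 and 6.73 CPM (log2 ratio -2.31, interval -3.53 to -1.26).

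Of the 8 synaptonemal complex and axis genes outside the gate, 0 were higher and 0 lower (median -0.30). Sycp2, the partner of SYCP3, stood at 107 CPM in spermatogonia, 1037 in early cells and 1660 in the members (log2 ratio 0.68). Syce3 stood at 277 and 414 CPM in early cells and members, while Syce1 stood at 403 and 216, Syce2 at 555 and 366, and Tex12 at 89.7 and 46.4. Of 8 genes of telomere attachment to the nuclear envelope, 1 was lower (Majin, 60.8 and 23.9 CPM) and 0 were higher. Spdya, the activator of CDK2 at telomeres, stood at 166 and 162 CPM.

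Each of the 3 recombination lists held more lower than higher genes, with single genes in both directions. Of all compared genes 14.6% were higher and 16.4% lower, and counts from lists this small are description only. Of 7 compared break formation genes 4 were lower: Rec114 (87.5 and 5.98 CPM), Mei1 (74.9 and 7.48), Mei4 (26 and 3 UMIs) and Iho1 (67.5 and 14.2). Spo11, the break-making transesterase, was the 1 gene higher, at 23.0 CPM in early cells and 74.0 in the members (log2 ratio 1.69, interval 1.09 to 2.32). Of 21 strand invasion genes 4 were higher and 6 lower. The higher genes were Mnd1, which helps the recombinases find the homologue (25.2 and 162 CPM, log2 ratio 2.68), Rad51ap2, the single-strand binding protein gene Meiob (48.9 and 160.0 CPM, log2 ratio 1.71) and Swi5 (458 and 1253 CPM). The lower ones included Brca2, a recombinase loader (912 and 344 CPM), and Rpa1 (48.9 and 14.95 CPM). Dmc1, the meiotic recombinase, stood at 283 and 200.4 CPM and Psmc3ip, the partner of MND1, at 92.7 and 183, both short of 2-fold. Of 14 crossover genes, Cntd1, a cyclin-like crossover regulator (36.3 and 177 CPM, log2 ratio 2.29), and Msh4 of the MutS-gamma pair (12.6 and 38.9 CPM) were higher and 6 were lower. Hfm1, a crossover helicase, stood at 208 and 274 CPM.

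**Figure D3:**
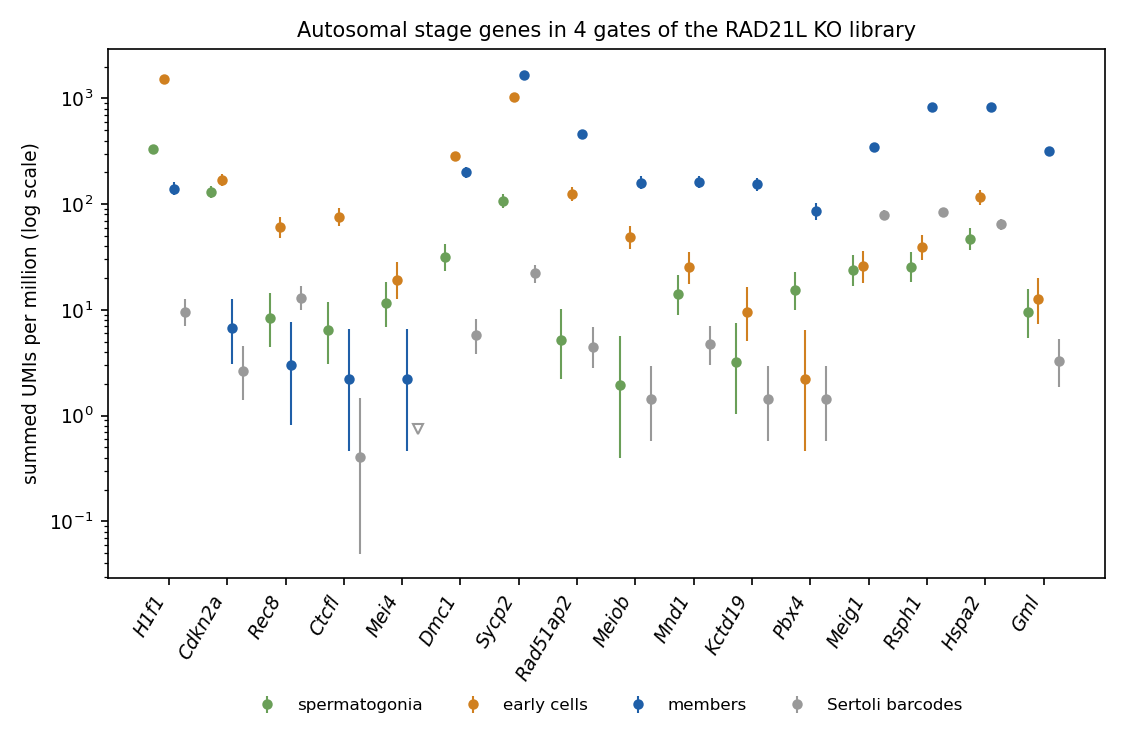
Points give summed CPM (log scale) of 16 autosomal genes in spermatogonia (green), early cells (orange), the gated members (blue) and Sertoli barcodes (grey) of the KO library, with exact Poisson 95% intervals; an open triangle is the upper bound where no UMI was found. H1f1 to Mei4 on the left are lower in members than in early cells, and Rad51ap2 to Gml are higher.

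Pachytene genes were present in the members, at levels above those of early cells. Of 21 listed pachytene and diplotene markers 14 had enough UMIs, and 11 of these were higher and 0 lower (median log2 ratio 1.93). Of all compared genes 14.6% were higher and 16.4% lower. Hspa2, the germ cell HSP70 needed at the end of prophase, stood at 116 CPM in early cells and 834 in the members (log2 ratio 2.85, interval 2.61 to 3.10). It was found in 72.5% of the members, 31.3% of early cells and 33.5% of Sertoli barcodes (63.4%, 16.6% and 13.2% after thinning). The translational repressor Ybx2 stood at 53.4 and 200.4 CPM, the spermatogenic chaperone Clgn at 67.5 and 239, and the sperm surface gene Adam2 had 3 and 44 UMIs (2.22 and 32.9 CPM). Ldhc, the germ cell lactate dehydrogenase, had 5 and 68 UMIs (3.71 and 50.8 CPM). Adam2, Ldhc and Piwil1 (9 and 44 UMIs) reached the filter of 20 UMIs only through the members, where they were higher. A gene low in 1 group is compared only if it is high enough in the other, here and in the other lists. The counts of higher and lower genes per list are therefore description only. Mybl1, the master regulator of pachytene transcription, stood at 136 and 237 CPM, short of 2-fold, and the testis linker histone H1f6 at 71.9 and 63.6. The 7 listed genes with too few UMIs were Pgk2, Ccna1, Pou5f2, Insl6, Ovol1, Calr3 and Spag6l, which could not be compared at this depth. Pgk2, for example, had 0 UMIs in early cells and 1 in the members.

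Of 18 compared regulators of germline transcription 8 were higher and 3 lower (median 0.51). Kctd19, which works with ZFP541 and histone deacetylases in pachytene, stood at 9.64 CPM in early cells and 154 in the members (interval of the log2 ratio 3.19 to 4.93), and Zfp541 at 79.3 and 200.4. Kctd19 was detected in 43.5% of the members, 3.8% of early cells and 0.9% of Sertoli barcodes (21.8%, 1.1% and 0.3% after thinning). With 13 UMIs in early cells and 206 in the members, it reached the filter of 20 UMIs only through the members. Hsf5 stood at 14.1 and 118 CPM, Pcgf6 of the variant Polycomb complex at 27.4 and 146.5, Tcfl5 at 18.5 and 63.6, Rfx2, a regulator of cilium genes, at 9.64 and 37.4, and Sox30 at 14.8 and 65.8. The lower 3 were Ctcfl, Taf4b (340.3 and 117 CPM) and E2f1 (67.5 and 32.2).

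The autosomal genes with the highest ratios included further genes of spermatocytes and sperm tails. Pbx4, a TALE homeobox gene of spermatocytes, had 3 UMIs in early cells and 115 in the members (2.22 and 86.0 CPM, log2 ratio 5.27, interval 3.69 to 7.57). It stood at 15.4 CPM in spermatogonia and 1.43 in Sertoli barcodes. Gml, a GPI-anchored LY6-family gene, stood at 12.6 and 318 CPM (log2 ratio 4.66) and the retinal reductase gene Rdh11 at 6.67 and 150.3 (4.49). Rsph1, a radial spoke head protein of the axoneme, stood at 39.3 and 835 CPM (log2 ratio 4.41, interval 4.01 to 4.84), against 84.1 CPM in Sertoli barcodes. The axonemal dynein chain Dnah7a had 1 and 56 UMIs. Ttll8, a tubulin glycylase, had 0 UMIs in early cells and 58 in the members, which places it at least 4.28 higher on the log2 scale against a floor of 3 UMIs (counting interval from 3.94). Phf2, a histone demethylase, stood at 7.41 and 132 CPM. Dppa5a, Tafa1, Ldhal6b, Pmaip1, Hdgfl1, Ube2u, Srgap1 and Cers3 complete the 15, with log2 ratios from 4.80 to 4.08. In all, 667 autosomal genes passed the same criteria.

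Promoter sequence was read for the leading autosomal genes because these genes differ together between the 2 groups. The windows are the 250 bases before each gene's start in RefSeq on GRCm38.p6, a build older than the GRCm39 named for the counts. The table held windows for 10 of the 15 named higher genes and 12 of the 15 named lower genes. Matches were sought on both strands for 4 forms of the MYB family site. The first was TAACTG and the next CAACTG, the third was TAACGG and the last was CAACGG. The other motifs were GTTGCC, which is part of an RFX site, GCGGGAA of the E2F family, and CNCCTCAG, a site given for STRA8. The MYB letters occurred in 25.4% of 1442 windows of autosomal genes higher in the members, 19.5% of 1628 windows of lower genes and 21.5% of 9871 windows of all compared autosomal genes (23.7% of all 32851 windows in the table). The STRA8 letters occurred in 5.69%, 10.4%, 7.53% and 6.42%, the E2F letters in 5.13%, 8.17%, 7.59% and 3.82%, and the RFX letters in 11.8%, 9.21%, 10.6% and 10.4% of the same sets. Some genes have more than 1 window, and a match is not a measured binding site. Shown are the windows of the leading named genes in each direction that hold a match, 5′ to 3′ on the gene's strand, with matches in capitals. The capitals are 2 STRA8 matches and a MYB match in Pbx4, 1 MYB match each in Rdh11 and H2bu2, and 1 E2F match in Cdkn2a.
Pbx4, higher, chr8:69832374-69832623, plus strand: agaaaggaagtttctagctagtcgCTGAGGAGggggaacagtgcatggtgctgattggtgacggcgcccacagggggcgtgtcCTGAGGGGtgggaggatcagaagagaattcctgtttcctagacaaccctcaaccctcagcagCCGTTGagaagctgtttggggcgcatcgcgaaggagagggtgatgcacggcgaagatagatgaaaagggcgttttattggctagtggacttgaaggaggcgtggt
Rdh11, higher, chr12:79191856-79192105, minus strand: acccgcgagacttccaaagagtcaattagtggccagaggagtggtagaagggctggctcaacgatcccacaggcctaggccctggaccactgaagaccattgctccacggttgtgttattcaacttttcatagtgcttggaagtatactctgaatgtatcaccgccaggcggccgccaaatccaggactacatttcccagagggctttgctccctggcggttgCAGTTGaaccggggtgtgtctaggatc
H2bu2, lower, chr11:58948661-58948910, plus strand: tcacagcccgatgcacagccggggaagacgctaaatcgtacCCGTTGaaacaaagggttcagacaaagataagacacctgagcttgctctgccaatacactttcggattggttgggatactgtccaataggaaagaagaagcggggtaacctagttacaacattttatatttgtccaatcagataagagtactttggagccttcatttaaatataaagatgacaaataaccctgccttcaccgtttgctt
Cdkn2a, lower, chr4:89294620-89294869, minus strand: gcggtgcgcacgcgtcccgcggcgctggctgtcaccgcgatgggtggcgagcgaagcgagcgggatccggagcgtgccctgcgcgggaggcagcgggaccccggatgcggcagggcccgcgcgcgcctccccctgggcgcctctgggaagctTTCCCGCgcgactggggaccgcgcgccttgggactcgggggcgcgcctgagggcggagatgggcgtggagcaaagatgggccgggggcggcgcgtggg

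The piRNA pathway, which makes the small RNAs that guard the germline genome, was higher in the members for 9 of 19 compared genes and lower for 1 (median 0.99). Tdrd5, a tudor protein of the nuage, had 5 UMIs in early cells and 83 in the members (3.71 and 62.1 CPM, log2 ratio 4.07). The piRNA-binding protein gene Piwil1 had 9 and 44 UMIs (6.67 and 32.9 CPM, log2 ratio 2.30, interval 1.25 to 3.52), and Piwil2 stood at 126 and 351 CPM. Pnldc1, the piRNA trimmer, was the lower gene (29.7 and 9.72 CPM), and Mael stood at 218 and 369, short of 2-fold. Of 18 cyclins and division kinases 4 were higher, among them Aurka (13.4 and 88.2 CPM), Cdk1 (43.0 and 210.1) and Ccnb2 (28.9 and 100.2). The cyclins Ccnd1 (89.0 and 11.96 CPM), Ccna2 (51.9 and 9.72) and Ccne2 were lower. Of 5 compared autosomal retrocopies of X-linked genes, 3 were higher: Pdha2 (25.2 and 160.0 CPM), Rpl10l (40.8 and 200.4) and Cstf2t (27.4 and 56.1).

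The p53 and apoptosis list showed no common direction, with 4 of 21 genes higher and 6 lower (median -0.11). Pmaip1, the BH3-only gene Noxa, had 5 UMIs in early cells and 91 in the members (3.71 and 68.0 CPM, log2 ratio 4.20, interval 2.92 to 5.86). It was found in 24.8% of the members, 1.4% of early cells and 0.3% of Sertoli barcodes (9.3%, 0.7% and 0.0% after thinning). Mdm2, the ubiquitin ligase that restrains p53, stood at 100.1 and 210.1 CPM, Ccng1 at 26.7 and 69.5, and Plk2 at 17.1 and 56.8. In Sertoli barcodes Mdm2 stood at 66.9 CPM, Ccng1 at 30.3 and Plk2 at 46.6, and the part of free RNA in these 3 was not tested. The lower genes included Ddb2 (194 and 31.4 CPM), Apaf1, the caspase-9 activator (58.6 and 20.2), Bcl2l11, Trp53inp1 and Rrm2b. Bax, the pore-forming effector, stood at 92.7 and 68.0 CPM, and Trp53 itself at 27.4 and 25.4. Of 19 genes of DNA damage signalling and silencing 7 were lower and 0 higher. The kinase gene Atm stood at 476 and 78.5 CPM (log2 ratio -2.60, interval -2.91 to -2.30), while its relative Atr, which acts on unsynapsed axes, stood at 630.2 and 953 CPM, short of 2-fold. Chek1 stood at 71.9 and 12.7 CPM and Brca1 at 159 and 46.4.

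The members can be laid out by the gate's own entry UMIs, which is a description of slices of the gate and supports nothing further. Of the 262, 173 held no UMI of the Stra8, Meiosin and Prdm9 trio, 44 held 1, 24 held 2 and 21 held 3. From 3 through 2 and 1 to 0 of these UMIs, Hspa2 stood at 121, 209, 624 and 1005 CPM and Rsph1 at 27.0, 259, 753 and 978. Early cells had Hspa2 at 116 CPM and Rsph1 at 39.3, so the 21 members with 3 of these UMIs stood near early cells in both genes. Meig1, a gene of the manchette and of late spermatogenesis, stood at 27.0, 119.5, 222 and 427 CPM over the same 4 sets. Dmc1 stood in the opposite order, at 553, 289, 217 and 159.5 CPM. Rad51ap2 gave 391, 329, 434 and 485 CPM, with counting intervals that overlap between neighbouring sets. Median depths were 3370, 3558, 4734 and 4705 UMIs, and a deeper barcode has more chance of showing a residual UMI, so the 4 sets are not matched for depth.

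The members were also ordered by their summed level of the autosomal pachytene list and cut into sets of 88, 87 and 87 barcodes, a split chosen after the data were seen. The list stood at 676, 1759 and 3086 CPM in these sets, which only restates the split, and Stra8, Meiosin and Prdm9 together at 290.2, 121 and 18.8. Among 6802 other genes with enough UMIs, 709 were higher in the 87 barcodes at the top than in the 88 at the bottom (10.4%) and 777 lower (11.4%). Fabp9, a lipid-binding protein of spermatocytes and sperm, had 3 UMIs in the bottom set and 247 in the top set (9.57 and 422 CPM). Cox6b2, the testis subunit of cytochrome oxidase, stood at 54.2 and 559 CPM, Tktl2 at 70.2 and 593, Meig1 at 67.0 and 588, and Rsph1 at 175 and 1357. Cdkn1c, the p57 cell cycle inhibitor, had 3 and 111 UMIs. Ccng1 stood at 15.9 and 128 CPM and Pmaip1 at 25.5 and 109, whereas Mdm2 stood at 207 and 241 and Plk2 at 57.4 and 63.3, within 2-fold. On the other side, Hells, a chromatin remodeller of replicating cells, stood at 829 CPM in the bottom set and 75.2 in the top set, Brca2 at 781 and 87.2, Zcwpw1 at 663 and 111, and Ddb2 had 33 and 1 UMIs. The axis gene Sycp2 and the recombination genes Rad51ap2 and Dmc1 differed less along this order, at 1814 and 1501, 303 and 504, and 287 and 157 CPM. Of the axis genes of the gate, Hormad1 stood at 756 and 1841 CPM and Sycp3 at 2140 and 3185. These genes were named after their values were seen. The median depth was 3354, 4642 and 5603 UMIs in the 3 sets and the Sertoli marker share 0.262%, 0.2265% and 0.180%. The stromal genes Dcn (153 CPM in the bottom set, 10.3 in the top set), Mgp (105 and 6.84) and Sparcl1 (166 and 15.4) followed the order too, and their part in it was not tested.

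**Figure D4:**
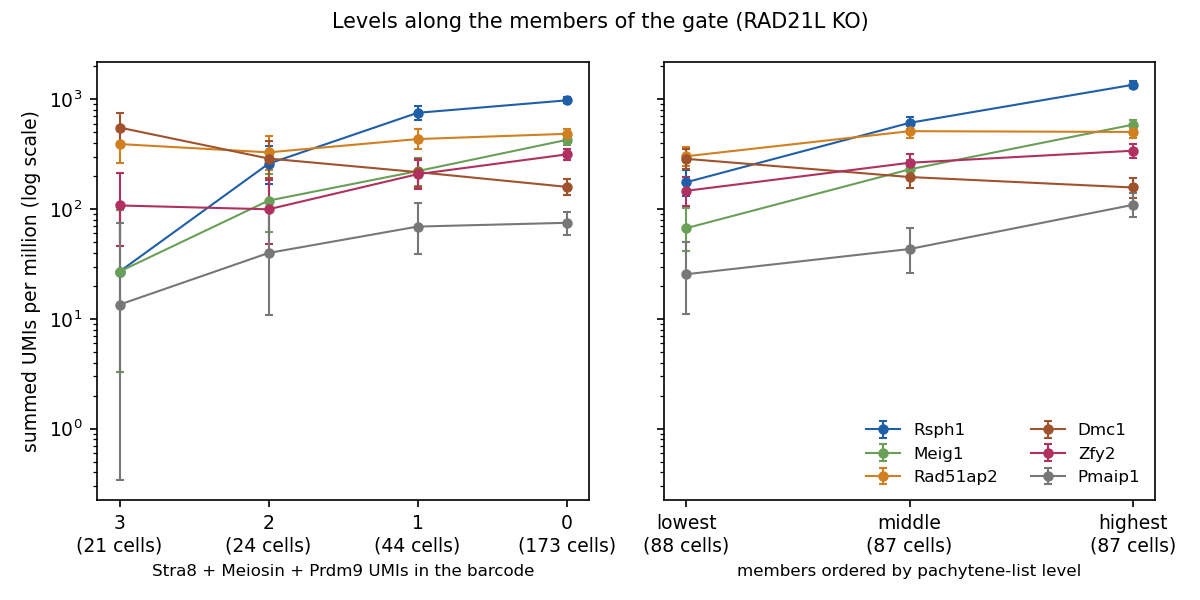
Summed CPM (log scale, exact Poisson 95% intervals) of 6 genes outside the gate, in members with 3, 2, 1 or 0 UMIs of Stra8, Meiosin and Prdm9 (left) and in members ordered by their pachytene-list level (right). Rsph1 and Meig1 stand higher at each step of both orders, Dmc1 is highest at the early end, and Rad51ap2 stays between 303 and 513 CPM.

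The X chromosome showed no common shift in the KO. Of 418 compared X-linked genes 70 were higher in the members than in the early cells (16.7%) and 80 lower (19.1%), shares close to those of autosomal genes. The X-linked median log2 ratio lay 0.05 below the autosomal one (difference -0.05). The X chromosome gave 2.65% of UMIs in KO spermatogonia, 3.17% in early cells and 3.02% in the members (Clopper-Pearson interval 2.99 to 3.05%). Single members ranged from 1.66% to 4.73%, with a median of 3.11%, and 0 of 262 lay under 1%. By the rule of 3 (3 divided by 262, not a Clopper-Pearson limit), this allows a share of such barcodes of up to 1.15% in this library. Along the order by pachytene level, the X share was 3.11%, 3.10% and 2.91%. Only 10 Y-linked genes could be compared: 3 were higher and 1 lower, and their median lay 0.49 above the autosomal one, with 7 of the 10 above it. The Y share was 0.178% of the members' UMIs and 0.180% of those of early cells.

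Single sex-linked genes did differ. Tsga8, a spermatid nuclear protein gene on the X chromosome, had 5 UMIs in early cells and 121 in the members (log2 ratio 4.61), and Cfap47, a protein of the sperm tail, had 8 and 182 (5.93 and 136 CPM, log2 ratio 4.52). The zinc finger transcription factor genes Zfy2 and Zfy1 on the Y chromosome stood at 14.8 and 269.9 CPM (log2 ratio 4.19, interval 3.54 to 4.91) and at 27.4 and 294 (3.42, interval 2.93 to 3.95). They stood at 9.001 and 5.14 CPM in spermatogonia and at 1.02 and 2.25 in Sertoli barcodes. Zfy2 was found in 61.8% of the members, 4.8% of early cells and 0.8% of Sertoli barcodes (34.6%, 2.1% and 0.0% after thinning). Scml1 (28.2 and 243 CPM), the ubiquitin-conjugating enzyme gene Ube2a (20.8 and 155), the dosage complex gene Msl3, Nsdhl, Mageb18 and Nrk were also among the 10 leading sex-linked genes, with log2 ratios from 3.62 to 2.45. The lower side held Nexmif (75.6 and 9.72 CPM, log2 ratio -2.96), Ints6l, Tslrn1, Fam50a, Esx1, Cited1, Hsd17b10, Phf8, Zdhhc9 and Mbnl3. Tslrn1 and Cited1 were abundant in KO Sertoli barcodes (453 and 704 CPM) and stood at 269.9 and 353 in early cells and 45.6 and 79.3 in the members, and the part of free RNA was not tested. Among 15 germline X-linked genes of the list 6 were higher and 3 lower (median 0.77). Ccnb3, the meiotic B-type cyclin, stood at 136 and 479 CPM, Dcaf8l at 181 and 754, and Scml2, a Polycomb protein of the X in spermatocytes, at 539.8 and 1059. Of 15 further X-linked genes 2 were higher and 2 lower (median -0.35), and of 8 Y-linked genes 3 were higher (Zfy1, Zfy2 and Usp9y) and 0 lower.

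The same gate on the WT library took 115 of 5415 barcodes (2.12%, interval 1.76 to 2.54%). To leave out some of the later spermatocytes, 3 or more UMIs of Rad51ap2, Dmc1 and Meiob together were also required. This left 39 WT barcodes (median 6778 UMIs) and 174 of the KO members (median 4872), which were not matched for stage or depth. Of the 39, 24 held 2 or more Piwil1 UMIs, with Piwil1 at 999 CPM against 31.5 in the 174 KO barcodes. In WT, 52 barcodes met the early rule (median 4596). Among 116 X-linked genes compared between these WT groups, 97 were lower in the gated barcodes than in WT early cells (83.6%) and 1 higher (0.862%), beside 16.2% lower and 13.9% higher of all 5740 genes. The X-linked median lay 2.66 below the autosomal one on the log2 scale (difference -2.66), where the KO gave -0.05. With genes of at least 1 UMI it was 0.0 in WT. The X share was 2.52% of UMIs in WT early cells and 0.643% in the 39 gated barcodes (interval 0.614 to 0.673%). Of these 39, 31 lay under 1%, against 1 of 52 WT early cells.

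**Figure D5:**
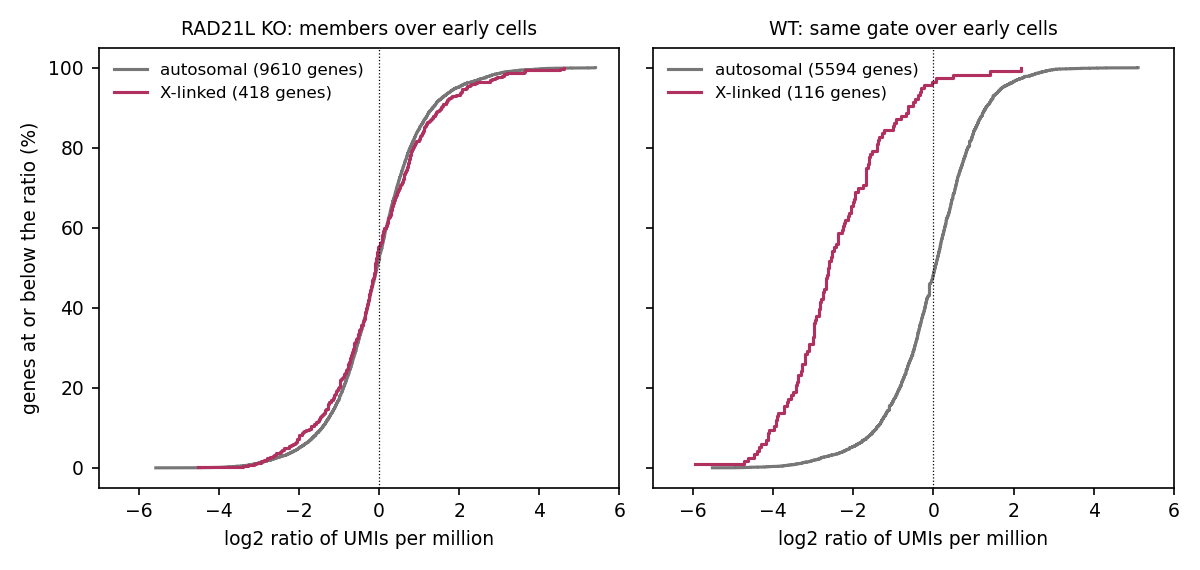
Cumulative share of genes at or below each log2 ratio, for autosomal (grey) and X-linked (red) genes, in the KO (left, members over early cells) and in WT (right, the same gate with 3 or more strand invasion UMIs over WT early cells). The curves overlie in the KO, with a median difference of -0.05, and lie apart in WT, at -2.66. The genes compared differ between the panels (418 X-linked genes in the KO and 116 in WT).

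The 2 gated groups were compared across autosomal genes first. Between 174 KO and 39 WT gated barcodes, 841 of 8014 genes were lower in the KO (10.5%) and 1066 higher (13.3%), with a median log2 ratio, KO over WT, of 0.16. Of 15 pachytene genes compared, 10 were lower in the KO and 0 higher (median -1.59). Of these 10, 5 (Piwil1, Adam2, Clgn, H1f6 and Sox30) also stood higher in WT gated than in WT early cells, and the other 5 (Ldhc, Pgk2, Ybx3, Spag6l and Ybx2) did not. Piwil1 stood at 734.5 CPM in WT gated barcodes, 108 in WT early cells and 47.9 in 27 WT Sertoli barcodes, and at 32.9 in the KO members. Ldhc stood at 1386 CPM in WT gated, 1372 in WT early and 1150 in WT Sertoli barcodes. The 8 leading genes lower in the KO were Prm1, Prm2, Tnp1, Tnp2, Smcp, Gsg1, Rbakdn and Gapdhs. Prm1, a sperm protamine, stood at 2744 CPM in WT gated and 2411 in WT Sertoli barcodes, and Rbakdn at 346 and 293. With 20% of each library's profile taken off, all 8 leading genes lower in the KO were at or under 3 UMIs in both groups, so no ratio remained. The part of free RNA in the levels of Piwil1 and Ldhc was not tested. Sycp2 differed by 0.26 on the log2 scale, and of the 8 axis and synaptonemal complex genes 0 were higher and 0 lower. Rad51ap2 differed by 0.65 and Dmc1 by 0.88, but both groups were selected on these genes, at unequal depth. Kctd19 (-0.55), Rsph1 (-0.92) and Hspa2 (-0.59) were lower in the KO by less than 2-fold, and Pbx4 was lower by 1.01 (log2 ratio -1.01).

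The 39 WT barcodes were also split by Piwil1, a choice made after the data were seen. The 15 WT barcodes with 0 or 1 Piwil1 UMI had Rad51ap2 at 509 CPM, Dmc1 at 208, Rsph1 at 926 and Hspa2 at 822, beside 548.5, 229, 898 and 912 in the 174 KO barcodes that passed the same filter, which uses the first 2 of these genes. Other genes differed more: Meig1 stood at 1447 and 388 CPM in the WT and KO barcodes and Ldhc at 984 and 59.1. Piwil1, on which only the WT barcodes were split, stood at 115.7 and 31.5. Ldhc was no higher here than in the WT early and WT Sertoli barcodes given above, and Rsph1 stood at 458 CPM in WT Sertoli barcodes. The part of free RNA in these levels was not tested. The X share of the 15 WT barcodes was 1.33% (interval 1.26 to 1.41%), with single barcodes from 0.295% to 3.24%, and 8 of 15 lay under 1%. The 24 with 2 or more Piwil1 UMIs had an X share of 0.348%, and 23 of them lay under 1%.

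Most sex-linked genes stood higher in the KO than in WT gated barcodes. Of 294 X-linked genes compared, 223 were higher than in the WT gated barcodes (75.9%) and 2 lower (0.68%), and the X-linked median lay 1.79 above the autosomal one. This difference was 1.14 after thinning, 0.844 with genes of at least 1 UMI and 2.80 with genes of at least 100 UMIs. Between KO and WT early cells the same difference was 0.25. Of the germline X-linked list 14 of 15 genes were higher, of the other X-linked list 14 of 14 and of the Y-linked list 7 of 7. Taf7l, a germ cell TFIID subunit on the X chromosome, had similar levels in KO early cells and members (982 and 872 CPM) and in WT early cells (912), and stood at 52.0 in WT gated barcodes. Zfy2 had 2 UMIs in the 39 WT barcodes (6.93 CPM) and Scml1 had 3 (10.4 CPM). Among autosomal genes, Kalrn, a guanine exchange factor, stood at 326 CPM in the 174 KO barcodes and 17.3 in WT, with 161 CPM in KO Sertoli barcodes. Apoe stood at 223 CPM in the 174 KO barcodes and had 1 UMI in WT, and it stood at 1744 CPM over all KO barcodes against 47.5 over all WT barcodes. With 20% of each library's profile taken off, Apoe was at or under 3 UMIs in both groups, so no ratio remained. Of 29 listed p53 genes 16 were compared, and 7 of these were higher in the KO than in WT gated barcodes and 0 lower (median 1.03). Of all compared genes 13.3% were higher and 10.5% lower. The KO group held 1015484 UMIs and the WT group 288642. A gene thus reached the filter of 20 UMIs more easily through the KO, here and in the sex-linked lists above. The split and the median are therefore description only. The 7 higher genes were Pmaip1, Ccng1, Aen, Btg2, Plk2, Rrm2b and Ddit4. Ccng1 stood at 73.9 CPM in the KO barcodes and had 0 UMIs in WT, which puts it at least 2.83 higher on the log2 scale against a floor of 3 UMIs (counting interval from 2.49), and Pmaip1 stood at 69.9 and 27.7 CPM. Btg2 and Plk2 are also found in Sertoli barcodes of both libraries, at 203 and 133 CPM and at 46.6 and 74.5, and the part of free RNA in them was not tested.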

How the data were processed

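UMI counts per gene and barcode were used as deposited by the authors, as 1 filtered matrix of 41459 genes per library. Cell Ranger 6.1.2, Seurat 4.3 and the build GRCm39 are named in the submitters' processing notes. Counts were summed over the barcodes of each gate and compared as CPM, with exact conditional binomial 95% intervals for ratios and exact Poisson or Clopper-Pearson intervals for levels and shares. With 1 library per genotype these cover counting error only. Genes with at least 20 UMIs in both groups together were compared. The comparison step was tested on simulated data. Chromosomes were taken by symbol from a RefSeq table of GRCm38.p6, which left 1502 genes without one, and promoter windows came from RefSeq on the same build. The lists held 318 entries, of which 315 were found. Mael and Eif2s3y were left out of lists whose chromosome they do not match.

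The members and gene lists were chosen with earlier results of these data known. Named genes are the 15 autosomal and 10 sex-linked genes with the largest ratio in each direction that had at least 50 UMIs in the higher group and kept a 2-fold difference after 10% of their level over all KO barcodes was taken off, without predicted, mitochondrial, ribosomal protein and haemoglobin genes. The same rule gave 8 genes per direction for KO against WT. Each list names up to 4 members past 2-fold and up to 2 of the most abundant others. Further list members were named after their values were seen. Scrublet (expected rate 5%) marked doublets, which were kept. A mitochondrial limit rested on 24 rRNA and tRNA genes and left out 0 barcodes. Barcodes were thinned to 2000 UMIs for shares of cells. Sertoli barcodes were those with at least 1000 genes, at least 2% Sertoli marker UMIs and under 0.05% Sycp1, Sycp3 and Hormad1 UMIs. Spermatogonia barcodes had the same gene minimum and axis limit. They also held at least 4 UMIs of Zbtb16, Sall4, Sohlh1, Uchl1 and Kit together and at least 2 of Dazl and Ddx4. Python 3.11.15, numpy 2.4.6, scipy 1.17.1, pandas 2.3.3, scanpy 1.11.5 and matplotlib 3.10.9 were used. Alternatives varied the gate, the low-count filter, free RNA, doublets, depth and scaling. Some results on list members are not reported here.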

Additional observations from a re-analysis of the deposited data

How the results depend on the processing

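Over the alternatives run, 87 values of the main comparisons stayed within their limits and 19 did not, and of the values for named genes 2409 stayed, 206 differed by more than their limit and 0 reversed. A further 9 values for named genes had no ratio with 20% of the library profile taken off, because both groups were at or under 3 UMIs. They were those of Apoe and of the 8 leading genes lower in the KO, all in KO over WT. Requiring 0 entry UMIs left 173 members. Requiring at least 0.3% axis UMIs of the early cells, as of the members, left 141 of the 291. Then 1463 genes were higher in the members and 1251 lower, of which 1183 and 1039 were shared with the main calls of 1480 and 1667. Under this setting 43 values for named genes differed by more than their limit and 105 stayed. The numbers of genes higher and lower in members than in early cells were 944 and 1049 after thinning to 2000 UMIs (774 and 887 of them shared with the full-depth calls) and 657 and 749 with at least 100 UMIs. Setting the median gene to 0 gave 1581 and 1554. For KO against WT gated barcodes, higher and lower counts were 360 and 299 after thinning, 339 and 170 with at least 100 UMIs and 654 and 510 with at least 5 strand invasion UMIs. The lower count was 528 with 20% of the library profile taken off and 1844 with at least 1 UMI. The WT difference between X-linked and autosomal medians was -2.88 with early cells of at least 0.3% axis UMIs, -2.89 and -2.96 with 10% and 20% of the profile taken off, -3.15 with at least 100 UMIs, -2.12 with at least 5 strand invasion UMIs and 0.0 with at least 1 UMI, where genes with too few UMIs to differ are included. The same difference for KO over WT gated barcodes ranged from 0.844 (at least 1 UMI) to 2.80 (at least 100 UMIs). Fewer UMIs or genes enter under thinning and the 100 UMI filter by construction, and for the other settings the cause was not tested. No paired analysis was possible because each genotype is 1 library. Depth limits the rarer pachytene genes, and 39 and 52 WT barcodes limit every WT ratio.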

Other observations

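Of 10 tested X-linked parents of the autosomal retrocopies, 2 stood higher in the members than in early cells (Cetn2 and Rbmx) and 3 lower (Pdha1, G6pdx and Cstf2), with a median log2 ratio of -0.56. Of all compared genes 14.6% were higher and 16.4% lower. Pdha1, the somatic subunit of pyruvate dehydrogenase, stood at 17.1 CPM in early cells and 5.23 in the members, while its autosomal copy Pdha2 stood at 25.2 and 160.0. Rpl10, a ribosomal protein gene, stood at 537 and 408 CPM, and its copy Rpl10l at 40.8 and 200.4. In WT, Rpl10 stood at 371 CPM in early cells and 34.6 in gated barcodes.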
